A study of Homo sapiens with 6 samples.

Results

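The genes described here are 33 genes of the endoplasmic reticulum (ER) unfolded protein response and of ER-associated degradation, chosen by symbol from the 35993 genes of the deposited expression table. They were measured by RNA-seq in MIA PaCa-2, a widely used line of human pancreatic carcinoma cells, in 3 untreated libraries and in 3 libraries of cells treated with rhCYGB at 4 µM for 48 h. rhCYGB is recombinant human cytoglobin, a heme protein, which the authors made in E. coli with a histidine tag. Both groups come from the same line, and the protocol describes a change to low-serum medium the day before treatment. No vehicle is named for the untreated cells, and no level of rhCYGB other than 4 µM and no time other than 48 h was analysed here. The study describes its experiments in general as independent repeats, but gives no cultures for the individual libraries, so the p-values below measure the spread between these libraries, which may be technical.

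The unfolded protein response adjusts the folding capacity of the ER to the load of newly made secretory and membrane proteins. Its membrane sensors IRE1 (encoded by ERN1), ATF6 and PERK (encoded by EIF2AK3) signal when unfolded proteins accumulate, and IRE1 acts by cutting a short intron out of XBP1 mRNA so that an active transcription factor is made. Chaperones, lectins and protein disulfide isomerases then fold proteins, while proteins that fail to fold are recognised by mannosidase-like proteins and lectins, moved to the cytosol through a membrane complex around the ubiquitin ligase SYVN1, and degraded by the proteasome. The exocrine pancreas is a tissue known for a heavy secretory load and a prominent form of this response.

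The 33 genes fell into 6 sensors and transcription factors, 14 folding factors, 11 degradation factors and 2 other ER proteostasis genes. DERL3, a derlin of the degradation complex, had 0 counts in all 6 libraries, where the limit that a count of 0 allows (3 counts in a library) corresponds to 0.0669 to 0.0902 CPM, and it could not be tested. CPM is the count of a gene relative to the scaled total count of its library. FPKM is the authors' value relative to transcript length and depth, to which this scaling was not applied. A change can therefore differ in size between CPM and FPKM. Of the 32 genes tested, 11 were higher and 16 lower after rhCYGB with an adjusted p below 0.05 by the quasi-likelihood test of edgeR, Benjamini-Hochberg adjusted over the 14728 genes tested, and 5 were not called. In these libraries a call by itself says little, since 77.6% of all genes tested were called, 39.0% higher and 38.6% lower. Among the tested genes of the set the shares were 84.4% called, 34.4% higher and 50% lower. With a limit of 2-fold added, 6 genes (18.8%) were higher and 3 (9.38%) lower, against 12.4% and 14.7% of all genes tested. These counts depended on the scaling, with 3 higher and 4 lower for upper-quartile factors and 3 higher and 5 lower for total counts. The shares of all genes at 2-fold were not counted for these scalings. Under them the median log2 fold change of all genes tested was -0.15 and -0.17, against -0.0046 in the main fit. The CPM of the groups did not overlap for 28 of the 32 genes (87.5%), against 79.5% of all genes tested. The median log2 fold change was -0.10, and the median size of the change regardless of direction was 0.54, against 0.59 over all genes tested.

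Each role was then described on its own. Of the 6 sensors and transcription factors, 4 were higher and 1 lower, with a median log2 fold change of 0.88. Of the 14 folding factors, 2 were higher and 11 lower, with a median of -0.52. Of the 10 degradation factors tested, 4 were higher, 3 lower and 3 not called, with a median of 0.06, which turned to between -0.08 and -0.11 with upper-quartile scaling, total counts or FPKM values. Over all genes tested, 39.0% were higher and 38.6% lower, and the median was -0.0046. This median over all genes moved down as well under the other settings. It was -0.15 with upper-quartile scaling, -0.17 with total counts and -0.08 or -0.14 with FPKM values. These counts describe the lists, and the difference between roles was not tested.

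**Figure D1:**
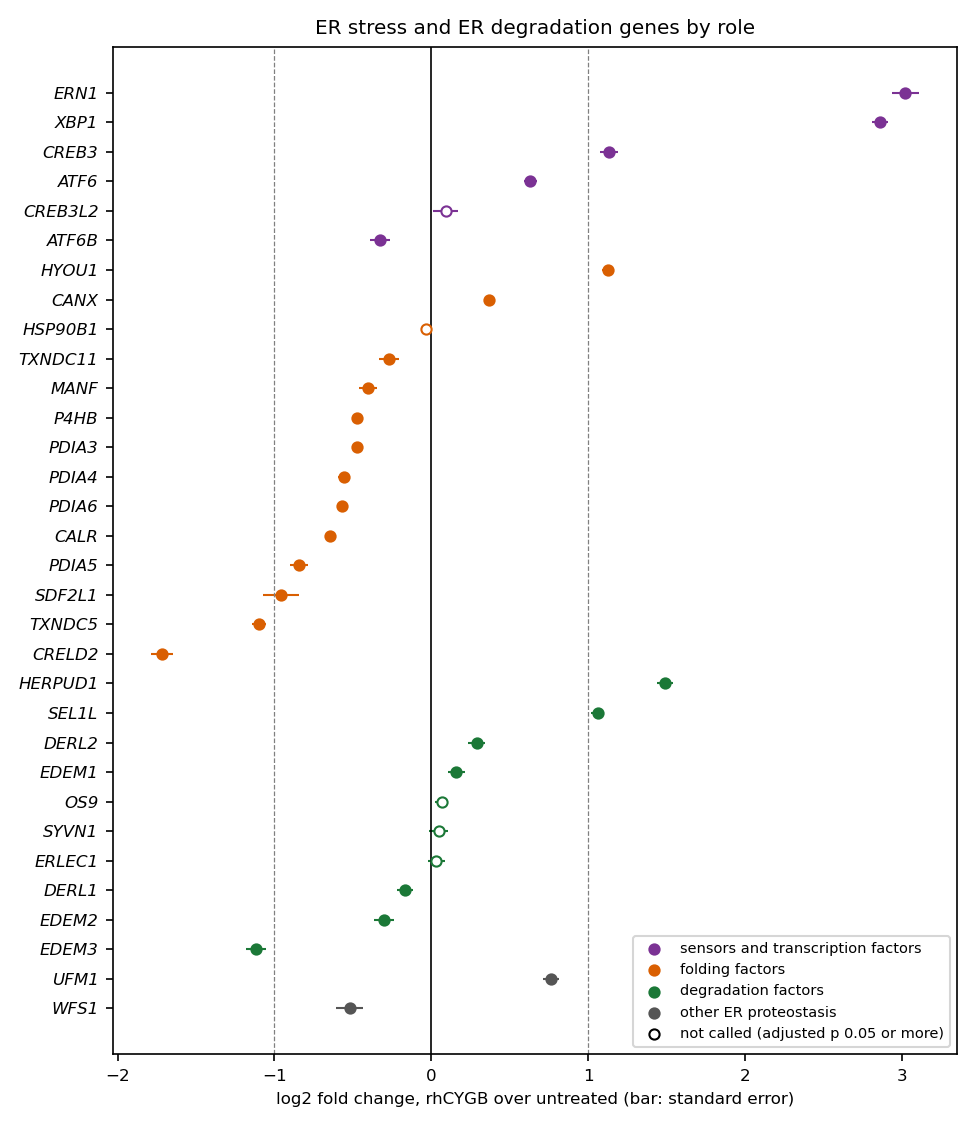
Log2 fold change of the 32 tested genes (rhCYGB over untreated, 3 libraries per group), grouped by role, with the standard error from edgeR as a bar. Open circles mark the 5 genes not called at an adjusted p under 0.05, and dashed lines mark 2-fold. ERN1 and XBP1 lie farthest to the right, while 12 of the 14 folding factors lie left of 0.

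Among the sensors, ERN1 (chromosome 17, 62116502 to 62207504 in the deposited table, which does not itself name a genome build), the kinase and endoribonuclease that processes XBP1 mRNA, was measured at 8.89, 8.10 and 10.6 CPM in the untreated libraries and at 69.3, 73.5 and 80.8 CPM in the rhCYGB libraries. Every rhCYGB library lay above every untreated one, and the means rose from 9.20 ± 1.29 to 74.6 ± 5.83 CPM (SD, n = 3 each). The log2 fold change was 3.02 (edgeR, SE 0.08, adjusted p = 8.93e-14), or 8.11-fold. In FPKM, the authors' measure per transcript length, ERN1 remained a weakly expressed gene of the set, ranking 32nd of 33 in untreated cells and 25th after rhCYGB, at 1.09 ± 0.160 and 7.86 ± 0.716 FPKM.

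XBP1 (chromosome 22, 29190548 to 29196560), which encodes the transcription factor downstream of IRE1, had 77.2, 74.5 and 66.4 CPM in untreated cells. After rhCYGB it had 544, 515 and 522 CPM, far outside the untreated range. The log2 fold change was 2.86 (edgeR, SE 0.05, adjusted p = 9.80e-16), or 7.26-fold. Per length XBP1 was the 10th most abundant transcript of the set in untreated cells, at 37.2 ± 2.60 FPKM. After rhCYGB it had the highest mean of the set, at 242 ± 10.3 FPKM, above the chaperones CANX and CALR. Its range over the rhCYGB libraries (250.6, 230.5 and 244 FPKM) overlapped that of CANX (226.1, 210.3 and 235 FPKM). Within each of these libraries XBP1 was above CANX.

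The transcript table separates the form of XBP1 mRNA that still holds the intron (NM_005080) from the spliced form (NM_001079539). Both are shown by the stretch around the intron, read from the GENCODE transcripts of GRCh38, 5′ to 3′ on the strand of the gene, with the 26 bases that IRE1 removes in capitals and 30 bases on each side in lower case. Because the bases at the ends of the intron repeat, 7 placements of the same 26-base gap give the same spliced sequence, and the placement printed is the one in which both cuts follow the letters gcag.
XBP1 intron: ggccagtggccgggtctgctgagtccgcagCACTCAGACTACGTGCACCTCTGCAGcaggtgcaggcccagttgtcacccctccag
Removal of 26 bases, which is no multiple of the codon length, changes the reading frame downstream and so gives the active protein.

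The spliced form held 283 counts beside 2592 unspliced counts in untreated library 1, 120 beside 3217 in library 2, and 256 beside 2450 in library 3. These are shares of 9.84% (95% Wilson interval 8.81 to 10.99), 3.60% (3.02 to 4.28) and 9.46% (8.42 to 10.6). In the rhCYGB libraries 3973, 3466 and 4333 counts were on the spliced form beside 16231, 13680 and 14923 on the unspliced form. Their shares were 19.7% (19.1 to 20.2), 20.2% (19.6 to 20.8) and 22.5% (21.9 to 23.1), so all of them exceeded every untreated share. The intervals cover counting error only, and untreated library 2 lay below the other untreated libraries by more than its interval. The mean share rose from 7.63% ± 3.50 to 20.8% ± 1.505 (SD, n = 3 each), a difference of 13.2 percentage points with p = 0.1 in a two-sided exact permutation test over libraries, which is the smallest p that 3 against 3 libraries can give. Without untreated library 2 the difference was 11.1 percentage points. Both forms were more abundant after rhCYGB, the spliced form at 110 ± 7.03 against 5.52 ± 2.55 CPM (19.9-fold) and the unspliced form at 418 ± 17.0 against 67.1 ± 6.22 CPM (6.22-fold). The forms differ by 26 of 1820 bases, and their counts come from the authors' transcript assembly and not from reads across the junction alone.

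**Figure D2:**
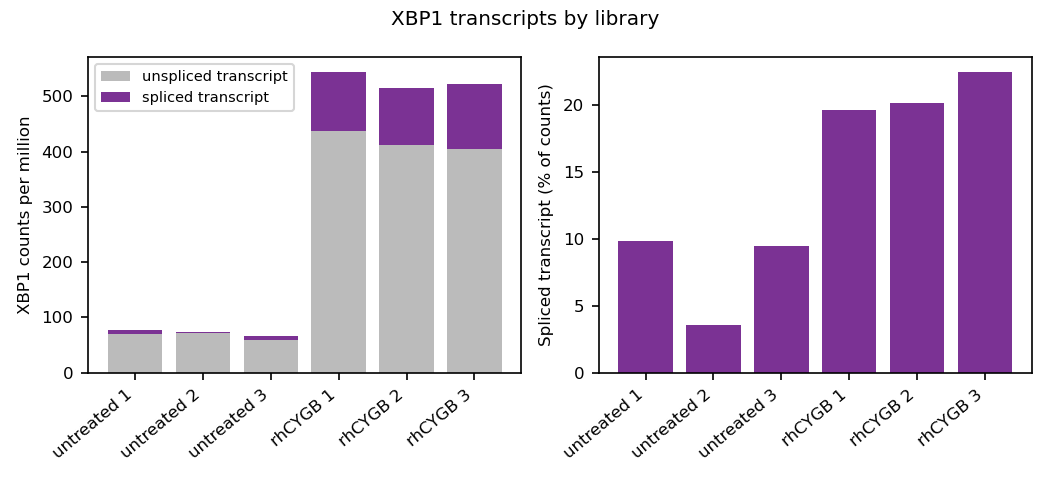
XBP1 CPM in each library, stacked by the unspliced and the spliced transcript (left), and the spliced transcript as a percentage of the XBP1 counts (right). The rhCYGB libraries lie between 19.7% and 22.5%, all above the untreated libraries, which lie between 3.60% and 9.84%.

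The other sensor genes moved less. ATF6, whose cytosolic part is released by cleavage in the Golgi and acts on chaperone genes, rose from 84.7 ± 3.26 to 131 ± 2.20 CPM (SD, n = 3 each), with a log2 fold change of 0.63 (edgeR, adjusted p = 1.26e-09). Its paralog ATF6B moved the other way, from 81.0, 90.1 and 85.8 CPM to 64.1, 64.0 and 76.9 CPM, with a log2 fold change of -0.33 (edgeR, adjusted p = 3.07e-04). The groups did not overlap, although rhCYGB library 3 came close to the lowest untreated library. CREB3, a related membrane-bound transcription factor, rose from 15.8, 14.7 and 15.1 CPM to 34.0, 33.2 and 32.6 CPM, with a log2 fold change of 1.13 (edgeR, adjusted p = 9.09e-11). CREB3 overlaps GBA2 in the deposited table. CREB3L2, of the same family, had 17.1, 17.2 and 16.4 CPM in untreated cells and 16.6, 17.0 and 20.3 CPM after rhCYGB. Its groups overlapped, and it was not called (log2 fold change 0.09, edgeR, adjusted p = 0.32).

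Several members of the set are textbook targets of ATF6 and XBP1 through short elements near the start site, and the promoter sequences were searched for these letters. The windows, from RefSeq on GRCh38.p14, hold 250 bases before and 50 bases from the start site and were given for 30 of the 33 genes. The ER stress element (ERSE) was searched as CCAAT and CCACG with 9 bases of any kind between them, ERSE-II as ATTGG and CCACG with 1 base between them, and the unfolded protein response element (UPRE) as TGACGTGG, each on both strands. ERSE was found in the windows of XBP1, HSP90B1, CRELD2, CALR, CANX and PDIA6, against 0.0916% of the 27305 genes with a window. ERSE-II was found in HYOU1, SDF2L1 and HERPUD1, against 0.0696% of genes, and UPRE in HYOU1, TXNDC5 and TXNDC11, against 0.927%. The UPRE of HYOU1 shares letters with the farther of its ERSE-II matches. Either form of ERSE was present in 9 of the 30 genes against 0.161% of all genes, and of these 9 genes 4 were higher, 4 lower and 1 not called after rhCYGB. Genes with such an element were therefore found on both sides. A match is a description of the letters and not evidence of binding.

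The elements of 3 genes that rose and of 3 that fell are printed with 20 bases on each side, 5′ to 3′ on the strand of the gene, so that they can be compared, with the element in capitals. XBP1 (chr22:28800583-28800641, minus strand), CRELD2 (chr22:49918534-49918592, plus strand) and CALR (chr19:12938364-12938422, plus strand) carry ERSE, which is reversed in CRELD2 and CALR. HYOU1 (chr11:119057254-119057304, minus strand), HERPUD1 (chr16:56932005-56932055, plus strand) and SDF2L1 (chr22:21642094-21642144, plus strand) carry ERSE-II, reversed in HYOU1 and SDF2L1.
XBP1, higher: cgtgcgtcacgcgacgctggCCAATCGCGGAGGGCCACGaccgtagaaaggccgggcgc
CRELD2, lower: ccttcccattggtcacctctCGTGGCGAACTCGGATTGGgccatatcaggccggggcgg
CALR, lower: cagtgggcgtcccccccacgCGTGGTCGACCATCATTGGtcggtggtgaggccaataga
HYOU1, higher: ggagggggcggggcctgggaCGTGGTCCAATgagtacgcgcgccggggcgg
HERPUD1, higher: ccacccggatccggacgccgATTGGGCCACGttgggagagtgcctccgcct
SDF2L1, lower: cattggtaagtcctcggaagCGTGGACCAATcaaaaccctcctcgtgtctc
HYOU1 and SDF2L1 carry ERSE-II in the same orientation, and the genes moved in opposite directions. Their windows are not matched otherwise. The printed element begins 79 bases before the start site in HYOU1 and 188 bases before it in SDF2L1. HYOU1 also holds the farther ERSE-II and the UPRE named above. A link between the elements and the direction of change was not tested.

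Most folding factors were lower after rhCYGB. CRELD2, an ER-resident protein known as a gene induced by ER stress, fell the most among them. It had 33.4, 37.7 and 35.1 CPM in untreated cells and 10.6, 11.3 and 10.5 CPM after rhCYGB, groups that lay far apart. The log2 fold change was -1.72 (edgeR, SE 0.07, adjusted p = 3.47e-12), or 3.29-fold lower. SDF2L1, which acts with an ER co-chaperone, had 13.1, 12.5 and 11.5 CPM against 7.43, 5.56 and 6.05 CPM, with a log2 fold change of -0.96 (edgeR, SE 0.11, adjusted p = 1.66e-06). MANF, an ER protein secreted upon stress, fell by 0.40 on the log2 scale, from 33.2 ± 1.91 to 25.1 ± 0.361 CPM.

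The set holds 7 genes of the disulfide isomerase family, whose enzymes form and reshuffle disulfide bonds in the ER. PDIA3, PDIA4, PDIA5, PDIA6, P4HB, TXNDC5 and TXNDC11 were all called lower, where 38.6% of all genes tested were. Relatives outside the set, named after their values were seen, went both ways. On the log2 scale ERP29 rose by 0.66, DNAJC10 by 0.54 and ERP44 by 0.41. TMX1 fell by 0.99, TMX4 by 0.97, TMX3 by 0.69 and TXNDC15 by 0.25, all called lower. PDIA2, TXNDC12, TXNDC16 and TMX2 were not called. TXNDC5 fell the most among the 7 genes of the set, from 407, 423 and 375 CPM to 188, 186 and 189 CPM, with a log2 fold change of -1.10 (edgeR, SE 0.04, adjusted p = 3.68e-12). PDIA5 had a log2 fold change of -0.84, PDIA6 of -0.57, PDIA4 of -0.56, PDIA3 and P4HB both of -0.47, and TXNDC11 of -0.27. P4HB, the prototype isomerase and also a subunit of collagen prolyl hydroxylase, went from 539, 550 and 537 CPM to 391, 381 and 400 CPM. In the deposited table PDIA3 overlaps ELL3, PDIA6 overlaps ATP6V1C2, PDIA5 overlaps MIR7110, TXNDC11 overlaps SNN, and TXNDC5 overlaps BMP6 and the read-through gene BLOC1S5-TXNDC5. The authors prepared the libraries with a stranded kit. The sources do not say whether counting used strand, so reads shared with these genes cannot be told apart. For TXNDC11 the share of counts on the transcript that led in all 6 libraries also differed, at 68.5% ± 6.93 in untreated cells and 28.5% ± 1.61 after rhCYGB (SD, n = 3 each), a difference that was not tested.

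The lectin chaperones, which hold glycoproteins during folding, went in opposite directions. The soluble CALR had 734, 733 and 754 CPM in untreated cells and 473, 465 and 481 CPM after rhCYGB, a log2 fold change of -0.65 (edgeR, SE 0.03, adjusted p = 7.61e-11). Its membrane-bound relative CANX had 1015, 1025 and 1040 CPM against 1331, 1276 and 1368 CPM, with a log2 fold change of 0.37 (edgeR, SE 0.03, adjusted p = 7.55e-08). Neither gene's groups overlapped. Per length, CALR was the most abundant of the set in untreated cells, at 361 ± 8.59 FPKM, ahead of P4HB at 207 ± 2.35 and CANX at 194 ± 3.96 FPKM. After rhCYGB, CANX stood at 224 ± 12.6 FPKM and CALR at 206 ± 7.85 FPKM. The SD ranges overlap, but both genes were measured in the same libraries. CANX was above CALR in each rhCYGB library, at 226.1, 210.3 and 235 against 207, 197.5 and 213.1 FPKM.

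HYOU1 (chromosome 11, 118914899 to 118927916), a large HSP70-type chaperone that promotes nucleotide exchange on the chaperone BiP, was the folding factor that rose most. It had 138, 146 and 137 CPM in untreated cells and 304, 301 and 315 CPM after rhCYGB. The log2 fold change was 1.13 (edgeR, SE 0.04, adjusted p = 7.76e-13), or 2.18-fold. HSP90B1, the HSP90 chaperone of the ER, had 562, 559 and 574 CPM against 557, 539 and 557 CPM. Its groups lay apart by a narrow margin only, and it was not called (log2 fold change -0.04, edgeR, adjusted p = 0.342). It was called lower with upper-quartile scaling, with total counts and with both FPKM fits, at log2 fold changes of -0.18 to -0.20. The summed level of the 14 folding factors went from 4697 ± 38.3 to 4096 ± 76.6 CPM and from 1601 ± 22.1 to 1128 ± 42.6 FPKM (SD, n = 3 each). As a share of all counts it went from 0.497% to 0.387%. HSPA5, which encodes BiP, is not among the 14 genes. It rose from 687 to 3052 CPM and from 163.3 to 647.5 FPKM (means, n = 3 each). The sum therefore describes these 14 genes and not the folding transcripts of the ER as a whole.

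**Figure D3:**
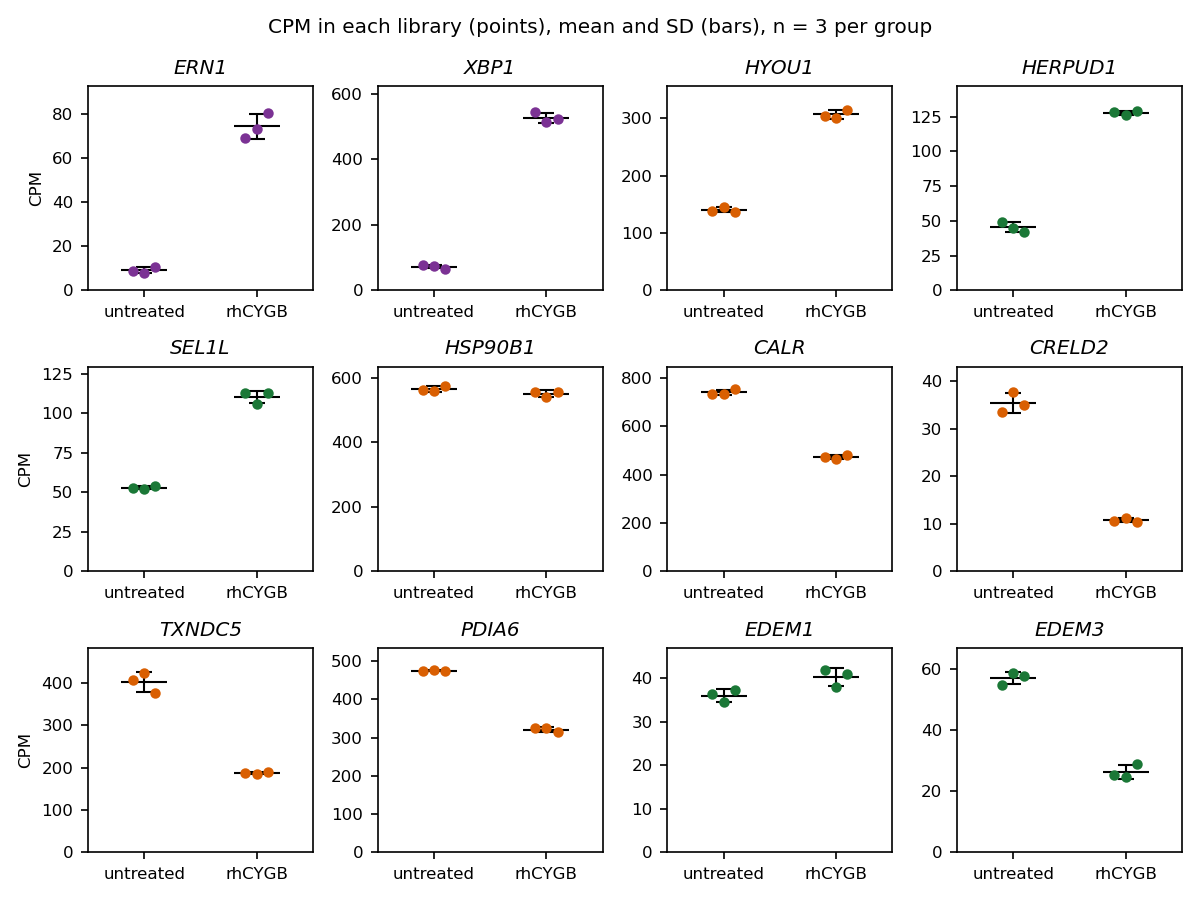
CPM of 12 genes of the set in each library (points), with the mean and SD of each group as bars (n = 3 each) and the vertical axes starting at 0. ERN1, XBP1, HYOU1, HERPUD1 and SEL1L lie higher after rhCYGB, CALR, CRELD2, TXNDC5, PDIA6 and EDEM3 lie lower, and HSP90B1 and EDEM1 differ by little.

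Among the degradation factors of the membrane complex around SYVN1, HERPUD1 (chromosome 16, 56966054 to 56978776), a membrane protein that recruits parts of that complex, had 49.4, 45.2 and 42.0 CPM in untreated cells and 128, 126 and 129 CPM after rhCYGB. The groups were clearly separate, with a log2 fold change of 1.49 (edgeR, SE 0.05, adjusted p = 1.02e-12), or 2.81-fold. SEL1L, the adaptor that binds and stabilises SYVN1, had 52.5, 52.2 and 54.0 CPM against 113, 106 and 113 CPM, with a log2 fold change of 1.06 (edgeR, SE 0.04, adjusted p = 5.57e-12). The ligase itself did not pass the test. SYVN1 had 32.4, 32.0 and 31.9 CPM against 30.6, 33.2 and 35.7 CPM, with overlapping groups and a log2 fold change of 0.05 (edgeR, adjusted p = 0.483). SYVN1 overlaps MRPL49 and MIR6751 in the deposited table.

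The lectins OS9 and ERLEC1, which present trimmed glycoproteins to the complex, did not pass the test either, at log2 fold changes of 0.07 (edgeR, adjusted p = 0.154) and 0.03 (edgeR, adjusted p = 0.613). Both had overlapping groups, OS9 at 140, 148 and 146 against 157, 153 and 144 CPM and ERLEC1 at 36.1, 40.5 and 40.7 against 40.9, 39.3 and 39.8 CPM. For OS9 the call rested on the libraries and the scaling, since it was higher without rhCYGB library 3 (0.10, edgeR, adjusted p = 0.0311) and lower with total counts (-0.10, edgeR, adjusted p = 0.0379). ERLEC1 was also called lower with total counts (-0.13, edgeR, adjusted p = 0.0402).

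The EDEM proteins trim mannose from misfolded glycoproteins and so mark them for removal, and the 3 genes did not move alike. EDEM3 fell from 54.9, 58.6 and 57.8 CPM to 25.2, 24.6 and 29.1 CPM, with a log2 fold change of -1.12 (edgeR, SE 0.06, adjusted p = 2.29e-10), or 2.17-fold lower. EDEM2, which overlaps the read-through gene MMP24-AS1-EDEM2, fell by 0.30 on the log2 scale (edgeR, adjusted p = 4.12e-04), from 25.8 ± 1.09 to 20.9 ± 0.997 CPM. EDEM1 had 36.3, 34.6 and 37.3 CPM against 41.9, 37.9 and 40.9 CPM, groups that lay just apart, at a log2 fold change of 0.16 (edgeR, adjusted p = 0.0158). That call was lost without untreated library 2 (log2 fold change 0.13, edgeR, adjusted p = 0.0709), with DESeq2 (0.14) and with upper-quartile scaling (0.02), and the sign turned with total counts and FPKM values. The derlins, membrane proteins of the export channel, split as well, with DERL2 at a log2 fold change of 0.29 (edgeR, adjusted p = 1.82e-04) and DERL1 at -0.17 (edgeR, adjusted p = 0.00752). With limma on log2(FPKM + 1), DERL2 had a difference of 0.11 and was not called.

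**Figure D4:**
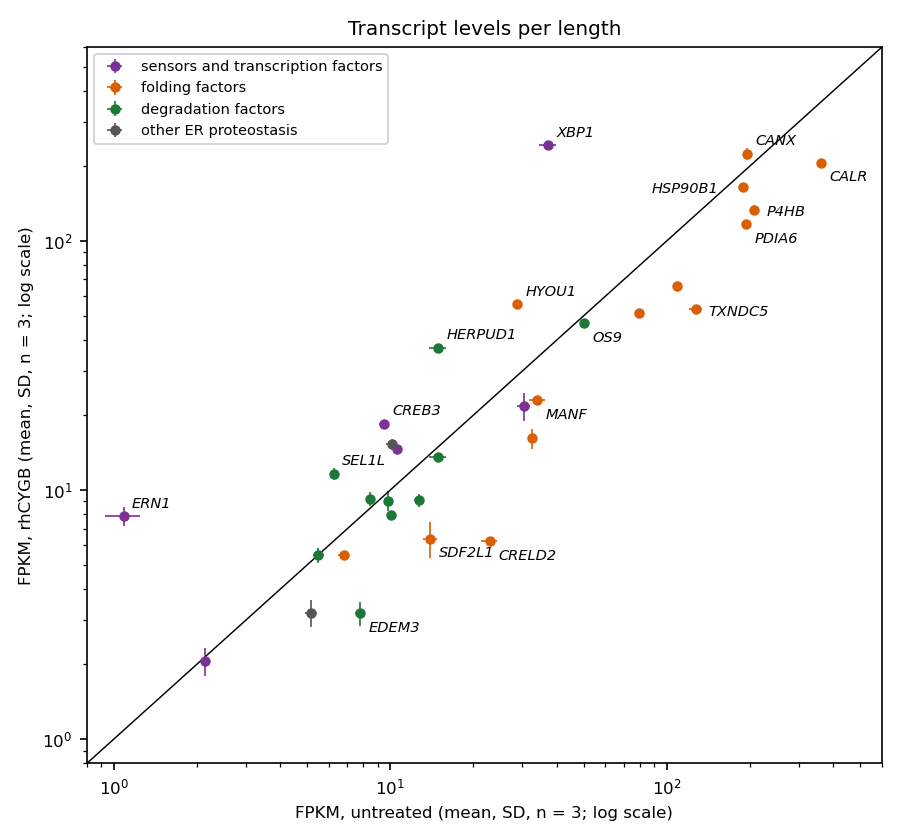
FPKM of each gene with counts in untreated cells (horizontal) and after rhCYGB (vertical), mean and SD of 3 libraries per group, both axes on a log scale, with the line of equal levels. XBP1 rises from 37.2 to 242 FPKM, to the level of the most abundant chaperones of the set, while most folding factors lie under the line. HSPA5, outside the set, is not shown and had a mean of 647.5 FPKM after rhCYGB.

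Of the remaining genes, UFM1, a ubiquitin-like modifier attached to proteins at the ER, rose from 34.7 ± 1.43 to 58.8 ± 2.04 CPM, with a log2 fold change of 0.76 (edgeR, adjusted p = 1.81e-09). All 8 further genes of the UFM1 pathway were called, 6 higher and 2 lower, with a median log2 fold change of 0.45. Of all genes tested, 77.6% were called, 39.0% higher and 38.6% lower. DDRGK1, a membrane anchor of the UFM1 ligase, rose by 0.61 and UFL1, the ligase, fell by 0.56 on the log2 scale. WFS1, an ER membrane protein linked to calcium balance, had 21.5, 19.3 and 19.9 CPM in untreated cells and 12.7, 13.8 and 15.7 CPM after rhCYGB. Its groups did not overlap, with a log2 fold change of -0.52 (edgeR, adjusted p = 3.90e-05).

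A broader list of 112 genes of the same pathways gave 50 higher and 45 lower among the 108 tested, with a median log2 fold change of 0.08. Beside this count and those of its parts below stand the shares of all genes tested, 39.0% higher and 38.6% lower. Of 12 tested signalling genes 6 were higher and 4 lower. EIF2AK3, the PERK sensor, rose by 0.27 on the log2 scale, from 15.8 ± 0.738 to 19.1 ± 0.506 CPM. Much larger rises were measured for ATF4 (1.95), the transcription factor translated when PERK or a related kinase is active, for DDIT3 (4.09), which encodes CHOP, and for PPP1R15A (3.84), a phosphatase subunit that counters PERK. CREB3L4, which overlaps JTB, fell by 0.99. DDIT3 overlaps MARS1 and MIR616 in the deposited table.

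Of 37 further chaperones and oxidoreductases tested, 12 were higher and 20 lower, with a median log2 fold change of -0.25. HSPA5, which encodes BiP, the main chaperone of the ER and partner of HYOU1, rose from 687 ± 7.90 to 3052 ± 81.5 CPM (SD, n = 3 each), with a log2 fold change of 2.15 (edgeR, adjusted p = 1.85e-16). DNAJB9, a co-chaperone of BiP, rose by 1.90, DNAJC3 by 0.39, and the oxidases ERO1A by 0.43 and ERO1B by 0.30, while DNAJB11, another co-chaperone, fell by 0.11 on the log2 scale. CNPY4, which overlaps TAF6, fell the most in this list, by 2.84, from 5.70 ± 0.643 to 0.792 ± 0.0138 CPM.

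Of 33 further degradation genes 21 were higher and 10 lower, with a median log2 fold change of 0.30. SELENOS, a selenoprotein of the export complex, rose by 1.28 and the ligase RNF185 by 1.42, the largest rise of this list among genes with a mean of at least 100 counts. VCP, the ATPase that pulls proteins out of the membrane, fell from 390 ± 1.36 to 151 ± 3.38 CPM, with a log2 fold change of -1.37 (edgeR, adjusted p = 3.64e-14). The ligase TMEM129 fell by 2.07, the largest fall of this list by the same rule.

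The libraries held between 34838399 and 42271299 counts, and libraries of a group differed by more than counting error (chi-square over degrees of freedom 4.67 to 6.61), so none repeated another. Markers of other cell types moved with the treatment. The summed level of 5 fibroblast and stellate cell markers was 143 to 153 CPM in untreated libraries and 6.30 to 8.27 CPM after rhCYGB, nearly all of it COL1A2, with DCN at 0 counts in every library. Of the 4 endothelial markers, PECAM1 and KDR had 0 counts in every library and CDH5 held nearly all of a sum of 109 to 122 against 10.5 to 13.7 CPM. Of the leukocyte markers, PTPRC and CD3E had 0 counts in every library, and the sum, nearly all of it CD68, was 34.3 to 38.0 against 70.4 to 72.4 CPM. The sum of 5 acinar cell markers was at most 0.156 CPM. The 5 epithelial markers summed to 3844 to 4074 against 2961 to 3167 CPM, with KRT8, KRT18 and KRT19 high and EPCAM at 0 counts in every library. They did not move alike. Mean KRT8 went from 2085 to 1190 CPM and KRT19 from 260 to 171 CPM. KRT18, at 1648 against 1694 CPM, and the weakly expressed KRT7, at 0.589 against 0.823 CPM, were not called. The part of these differences in the results above was not tested. In bulk RNA, a change in the share of cells that express a gene and a change in its RNA per cell cannot be told apart.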

How the data were processed

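RNA-seq of 3 untreated and 3 rhCYGB-treated MIA PaCa-2 libraries was used. According to the submitters' processing notes and the methods, the authors checked reads with FastQC 0.11.7, mapped them with HISAT2 2.1.0 and assembled transcripts with StringTie 2.1.3b. The notes name mm10, a mouse build, although the tables hold human RefSeq transcripts, so positions are given as deposited and tied to no build. The deposited positions do not match GRCh38, on which the promoter elements are placed, so the positions of genes and elements cannot be compared. The deposited read counts per gene and per transcript are not normalized. The deposited FPKM values are scaled by the authors to transcript length and depth. 18 further per-sample columns were not used. Genes were filtered with filterByExpr and tested with edgeR 4.0.16 (R 4.3.3, TMM factors, glmQLFTest, no block). Of 35993 genes, 15205 had 0 counts in every library and 14728 were tested. CPM use TMM-scaled library sizes. The fit was also run on simulated counts in which few genes were changed. That run does not check the scaling for data in which most genes are called, as here. The XBP1 share was tested with scipy 1.17.1 by an exact permutation over libraries. DESeq2 1.42.0 and limma 3.58.1 (pseudocounts 1 and 0.1) served as alternatives, beside other scalings, filters, transcript sums, a replicate block and leaving out each library. The genes, roles, lists and tests were chosen with earlier results of these data known. All 33 genes are named. Of the further pathway genes, the text names 13 chosen by symbol and, in each list, the largest rise and fall among called genes with a mean of at least 100 counts in the higher group. The relatives of the disulfide isomerases were added to these after their values were seen. Reads carry no molecular identifiers, so intervals and floors reflect counting error alone.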

Additional observations from a re-analysis of the deposited data

How the results depend on the processing

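Of the 32 genes tested, 25 kept their direction and their side of the threshold in all 10 other settings and in all 6 fits without a library, and 480 of 512 single values did so. The exceptions were CREB3L2, HSP90B1, SYVN1, OS9, ERLEC1, EDEM1 and DERL2, all with small changes. Other scalings shifted the median of all genes tested, from -0.0046 to -0.15 with upper-quartile factors, to -0.17 with total counts, to -0.08 with limma on log2(FPKM + 1) and to -0.14 on log2(FPKM + 0.1), and small changes moved with it. Upper-quartile factors gave 3 genes higher by 2-fold in place of 6, medians of 0.74 for sensors, -0.66 for folding factors and -0.0845 for degradation factors, and log2 fold changes of -0.0519 for CREB3L2, -0.0944 for SYVN1, -0.0745 for OS9 and -0.11 for ERLEC1. Total counts gave 3 higher and 5 lower by 2-fold, medians of 0.72, -0.68 and -0.11 in the same order, and -0.0746 for CREB3L2, -0.12 for SYVN1, -0.10 for OS9, -0.13 for ERLEC1 and -0.0058 for EDEM1. limma on log2(FPKM + 1) gave 3 higher by 2-fold, medians of 0.66, -0.68 and -0.10, and -0.0387 for CREB3L2, -0.11 for SYVN1, -0.10 for OS9, -0.12 for ERLEC1 and -0.0054 for EDEM1. limma on log2(FPKM + 0.1) gave 3 higher and 5 lower by 2-fold, medians of 0.71, -0.68 and -0.11, and -0.0566 for CREB3L2, -0.12 for SYVN1, -0.10 for OS9, -0.13 for ERLEC1 and -0.0065 for EDEM1. The 3 genes that left the count of rises were CREB3, HYOU1 and SEL1L, which lay between 1.06 and 1.13. Over the fits without a library, ERLEC1 ranged from -0.023 (without untreated library 1) to 0.0628, CREB3L2 from -0.0062 and SYVN1 from -0.0084 (both without rhCYGB library 3) to 0.15 and 0.11. Leaving out each library in turn gave 10 to 12 genes higher, 16 lower, 6 higher and 3 to 4 lower by 2-fold, medians of 0.87 to 0.89, -0.53 to -0.50 and 0.05 to 0.08, and a difference in the XBP1 spliced share of 11.1 to 14.3 percentage points. With the replicate number as a block the counts were 11 higher and 16 lower, 6 and 3 by 2-fold. The correlation of deviations between libraries of the same number was -0.048, 0.007 and 0.006, so the numbers were not taken to pair the libraries. Depth limits the statement on DERL3, and the transcript assignment limits that on XBP1 splicing.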

Other observations

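Genes that move new proteins into the ER were examined as a further list. Of 18 translocation genes (the SEC61 channel, its partners, the signal recognition particle receptor and the signal peptidase), 5 were higher, 9 lower and 4 not called, with a median log2 fold change of -0.06, and only SPCS3 reached 2-fold. Over all genes tested, 39.0% were higher and 38.6% lower. SPCS3, a subunit of the signal peptidase, fell from 72.6 ± 5.52 to 30.9 ± 0.914 CPM (SD, n = 3 each), a log2 fold change of -1.23 (adjusted p = 2.81e-11 from edgeR's test). SEC61A2, the less abundant form of the channel subunit, rose by 0.64 on the log2 scale, from 9.82 ± 0.699 to 15.3 ± 0.921 CPM, and it overlaps NUDT5 in the deposited table.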
